A study of Rattus norvegicus with 12 samples.

Results

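NFAT5, also called TonEBP, is the transcription factor that animal cells use to adapt to hypertonic surroundings. Together with NFAT5 itself, 8 genes were followed here. SLC5A3, SLC6A6, SLC6A12, AQP1, AKR1B1, SGK1 and HSPA4L are known as NFAT5 targets or as genes induced by hypertonicity. SORD takes part in the handling of sorbitol. The genes were chosen for these known roles, by identifier, and all 9 were among the 20263 genes of the full deposited tables. When the outside becomes hypertonic, water leaves the cell, and NFAT5 raises genes that bring in or make small compatible solutes such as sorbitol, myo-inositol, taurine and betaine. Glucose is both an osmolyte and the substrate from which AKR1B1, aldose reductase, makes sorbitol, so this programme is often examined in cells kept in high glucose.

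RNA was measured by poly(A)-selected paired-end sequencing in 12 libraries of wild-type H9C2 cells, an established line that came from the heart of a rat embryo, with 3 biological replicates in each of 4 groups, all treated for 48 h. Ctrl cells were in 5.5 mM glucose and HG cells in 100 mM glucose, with no compound named for either. HG-Res cells were in 100 mM glucose with 5 µM resveratrol, a plant polyphenol. HG-Res-SIRT7-Inh cells were in 100 mM glucose with resveratrol at 5 µM plus, also at 5 µM, what the labels call a SIRT7 inhibitor and name SirReal2, best known as a SIRT2 inhibitor. The 3 HG-Res-SIRT7-Inh libraries are also called the inhibitor libraries. None of the 4 groups had another osmolyte in place of the added glucose, and none had the inhibitor without resveratrol. The labels call the cells cardiomyocytes and the species rat, but all 20263 identifiers carry Ensembl's prefix for human genes and 0 matched the rat gene table, so the species behind the values was not settled. The tables pair no identifier with a name, so the symbols of the 9 genes are those of the human Ensembl identifiers by which they were chosen, and cardiomyocyte markers and further genes of the osmotic pathway were not analysed here.

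Levels are in CPM, a gene's reads scaled to the same total in every library, which compare a gene between libraries but not with another gene. Depth recovered from the values was 30290000 to 33170000 reads in the 9 high-glucose libraries. Among these, 2 libraries stood apart: on the first principal component, which took 56.1% of the variance, HG replicate 2 lay at 29.7 and HG-Res-SIRT7-Inh replicate 3 at -50.7, with the other libraries between -17.1 and 14.4. Changes that rest on these 2 libraries are given with and without them. Correlations with NFAT5, and ranks by them, were not computed without both. In bulk RNA, fewer cells of a type and less RNA per cell cannot be told apart. Changes are differences of log2(CPM + 1) from limma with its standard error (SE), with p-values adjusted by the Benjamini-Hochberg method over the 12854 genes that had at least 0.5 CPM in at least 3 high-glucose libraries. Of the 9 genes 7 met that limit, and SLC6A12 and AQP1 did not. The fit gave each gene 1 variance for all 3 groups, although replicates spread unequally. The median SD of a gene on the log2 scale was lowest with resveratrol alone (0.071). It was larger with neither compound (0.132) and largest with both compounds (0.242). The SE may therefore be too large for HG-Res against HG, and too small where the inhibitor libraries are compared.

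The comparison of HG with Ctrl bears on high glucose itself. The authors' deposited table of HG against Ctrl lists 354 genes, each with an unadjusted p under 0.05 and a change of over 1.5-fold, and 0 of the 9 genes is among them. Their Ctrl levels were therefore not analysed here, and no size or interval can be given for their response to glucose. The values below describe cells that were all in 100 mM glucose.

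**Figure D1:**
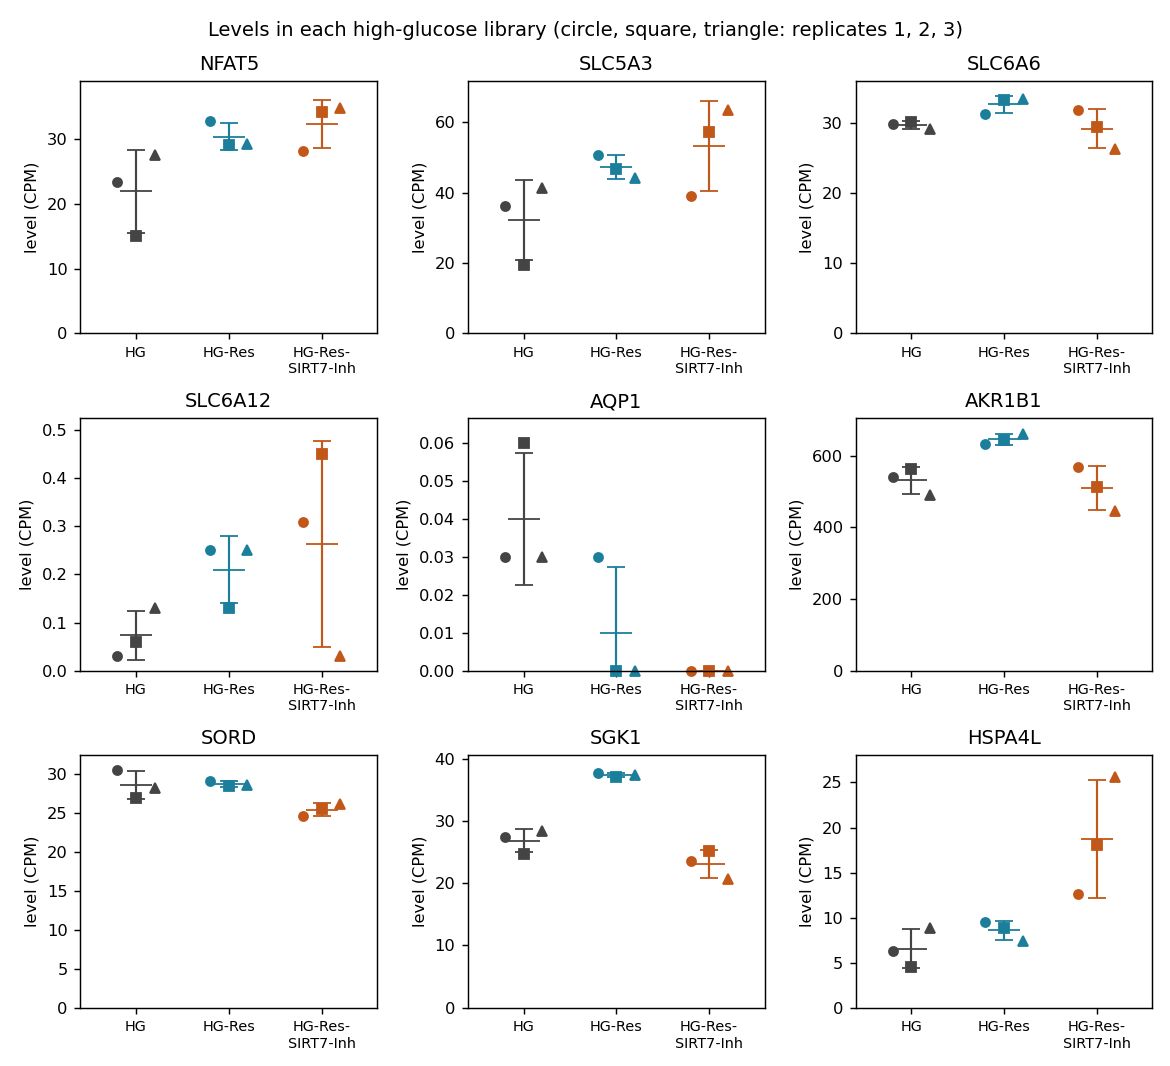
Level of each gene in CPM (vertical axes from 0, a different scale in each panel) in the 9 high-glucose libraries, by group; points are libraries, the horizontal bar is the mean and the error bar 1 SD (n = 3). SGK1 was highest in the 3 HG-Res libraries (37.0 to 37.8 CPM), and HSPA4L in the 3 HG-Res-SIRT7-Inh libraries (12.6 to 25.6 CPM), while SLC6A12 and AQP1 stayed under 0.5 CPM throughout.

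Over the 7 tested genes, 0 passed an adjusted p of 0.05 in limma between HG-Res and HG, where 0.708% of all tested genes did. At an unadjusted p under 0.05 the fit over all 3 groups gave 4 (NFAT5, SLC5A3, AKR1B1 and SGK1), against 10.7% of all tested genes. At an adjusted p under 0.05 voom also called 0 of the 7, where it called 0.653% of all tested genes. All 7 had a log2 change above 0 in HG-Res against HG, with a median of 0.38 beside -0.001 over all tested genes. Without HG replicate 2, 6 of 7 lay above 0 and the median was 0.25 (-0.034 over all tested genes), and without HG-Res replicate 1 the count was also 6 of 7, with a median of 0.31. The replicate values did not overlap in 5 of the 7 (NFAT5, SLC5A3, SLC6A6, AKR1B1 and SGK1), all with HG-Res above HG. Among all tested genes 29.9% did not overlap, counted in either direction, and the share with HG-Res above HG was not computed. When the inhibitor was added, 1 of 7 passed against HG-Res, where 6.07% of all tested genes did (1.88% higher and 4.19% lower): SGK1, which fell. Between HG-Res-SIRT7-Inh and HG, 1 of 7 passed, HSPA4L, which rose, where 10.8% of all tested genes did (4.27% higher and 6.5% lower). At an unadjusted p under 0.05 the counts were 3 with the inhibitor added (AKR1B1, SGK1 and HSPA4L, against 24.6% of all tested genes) and 3 for both compounds against HG (NFAT5, SLC5A3 and HSPA4L, against 27.9%). The median log2 change was -0.16 in the former comparison (0.04 over all tested genes) and -0.03 in the latter (0.038). Without HG-Res-SIRT7-Inh replicate 3 the medians moved to -0.09 and 0.04, the latter with its sign turned. The latter was -0.09 without HG-Res-SIRT7-Inh replicate 1. Replicate values did not overlap in 4 of 7 genes with the inhibitor added to resveratrol, 1 higher (HSPA4L) and 3 lower (AKR1B1, SORD and SGK1). For both compounds against HG it was 3 of 7, 2 higher (NFAT5 and HSPA4L) and 1 lower (SORD). The shares over all tested genes, in either direction, were 33.7% and 28.1%. The 3 comparisons share libraries, so they are not independent of each other.

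**Figure D2:**
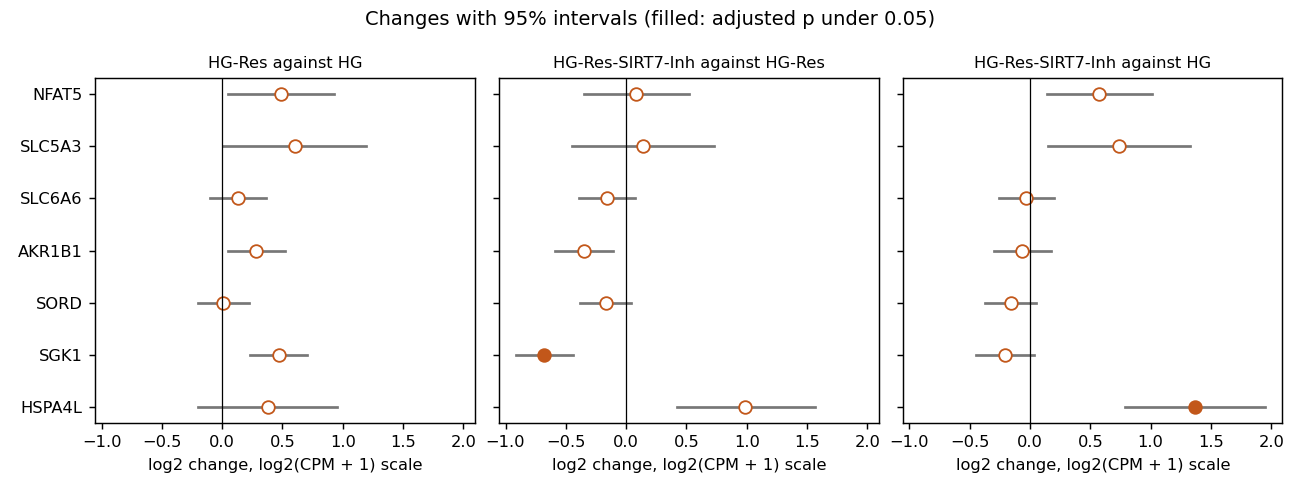
Differences of log2(CPM + 1) for the 7 tested genes in the 3 comparisons, with 95% intervals from limma (horizontal axes, no unit); filled points have an adjusted p under 0.05. Only SGK1 with the inhibitor added (-0.68) and HSPA4L with both compounds against HG (1.37) are filled.

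NFAT5 (ENSG00000102908), the factor at the head of the programme, was at 23.4, 15.0 and 27.6 CPM in HG replicates 1, 2 and 3. It was at 32.8, 29.1 and 29.3 CPM in HG-Res and at 28.1, 34.2 and 34.8 CPM in the inhibitor libraries. Every library with resveratrol, with or without the inhibitor, lay above all 3 HG libraries, and HG replicate 2 was well below the other two. The log2 change was 0.49 ± 0.20 (SE) for HG-Res against HG, 95% interval 0.05 to 0.93 (limma adjusted p = 0.401). With both compounds it was 0.57 ± 0.20 against HG, interval 0.14 to 1.01 (limma adjusted p = 0.0932). Neither passed. HG replicate 2 carried much of the difference: without it the 2 changes were 0.25 and 0.33 (limma adjusted p = 0.524 and 0.213). Without HG replicate 3, the highest HG library, the change with both compounds was 0.75 and passed (limma adjusted p = 0.0496). HG-Res and HG-Res-SIRT7-Inh overlapped, with a change of 0.08 (interval -0.35 to 0.52, limma adjusted p = 0.785), or 0.03 without HG-Res-SIRT7-Inh replicate 3. The means thus ran from 22.0 CPM in HG to 30.4 with resveratrol and 32.4 with both compounds, and none of these steps passed the test.

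SLC5A3 (ENSG00000198743), the sodium-coupled myo-inositol transporter SMIT1 and a classical NFAT5 target, had the same order. Its levels were 36.2, 19.5 and 41.3 CPM in HG, 50.8, 46.8 and 44.1 in HG-Res, and 39.0, 57.1 and 63.6 in the inhibitor libraries. HG replicate 2 was the lowest of the 9 libraries and HG-Res-SIRT7-Inh replicate 3 the highest. HG-Res lay above HG without overlap, by 0.60 ± 0.26 (SE, limma adjusted p = 0.46), and by 0.28 without HG replicate 2 (limma adjusted p = 0.568). HG-Res-SIRT7-Inh overlapped HG, because its replicate 1 lay below HG replicate 3, with a change of 0.74 ± 0.26 (interval 0.15 to 1.33, limma adjusted p = 0.104). That change was 0.42 without HG replicate 2 (limma adjusted p = 0.254), 0.28 without both libraries that stood apart (limma adjusted p = 0.204), and passed at 0.95 without HG-Res-SIRT7-Inh replicate 1 (limma adjusted p = 0.0433). Adding the inhibitor to resveratrol gave 0.14 (interval -0.45 to 0.73, limma adjusted p = 0.731), and 0.00 without HG-Res-SIRT7-Inh replicate 3. The authors' deposited table marked SLC5A3 as up for both compounds against HG, with a log2 fold change of 0.71 and a q-value of 0.119. In the human annotation SLC5A3 overlaps MRPS6 on the same strand, and how reads of overlapping genes were counted is not given in the sources used here.

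SLC6A6 (ENSG00000131389), the taurine transporter, differed less between group means than SLC5A3. It was at 29.9, 30.2 and 29.2 CPM in HG, 31.3, 33.4 and 33.5 in HG-Res, and 31.9, 29.5 and 26.3 in the inhibitor libraries. The 3 HG-Res libraries lay just above the HG libraries, and the inhibitor libraries reached from below the HG range into that of HG-Res. The changes were 0.13 (interval -0.10 to 0.36), -0.16 (-0.39 to 0.07) and -0.03 (-0.26 to 0.20) for HG-Res against HG, for the inhibitor added to resveratrol, and for both compounds against HG. The limma adjusted p-values were 0.742, 0.329 and 0.864, and none passed. Without HG-Res-SIRT7-Inh replicate 3 the changes in the comparisons that hold the inhibitor moved to -0.09 and 0.04.

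SLC6A12 (ENSG00000111181), the betaine transporter BGT1, was barely present. Its recovered reads numbered 1, 2 and 4 in HG, 8, 4 and 8 in HG-Res, and 10, 14 and 1 in the inhibitor libraries, at most 0.45 CPM. AQP1 (ENSG00000240583), a water channel, had 1, 2 and 1 reads in HG, 1, 0 and 0 in HG-Res, and 0 in each HG-Res-SIRT7-Inh library, where 0 allows up to 3 reads, or 0.0939 to 0.099 CPM. Such limits cover counting error only. The reads of SLC6A12 summed to 7 in HG, 20 in HG-Res and 25 in the inhibitor libraries, and its replicates overlapped or met between every pair of groups. Both genes were fitted only when the limit on low values was dropped, and neither passed in any of the 3 comparisons: the limma adjusted p-values ran from 0.265 to 0.809 for SLC6A12 and from 0.245 to 0.77 for AQP1.

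AKR1B1 (ENSG00000085662), aldose reductase, reduces glucose to sorbitol in the first step of the polyol pathway. It was at 540.4, 564 and 490.3 CPM in HG, 632, 645 and 661 in HG-Res, and 568, 514 and 445 in the inhibitor libraries. The HG-Res libraries were above all 6 others, and the inhibitor libraries spanned the HG range. The change was 0.28 ± 0.11 (SE) for HG-Res against HG (interval 0.05 to 0.52, limma adjusted p = 0.36) and -0.35 ± 0.11 when the inhibitor was added (interval -0.59 to -0.11, limma adjusted p = 0.0856). Neither passed, and HG-Res-SIRT7-Inh against HG was at -0.07 (interval -0.30 to 0.17, limma adjusted p = 0.705), or 0.03 without HG-Res-SIRT7-Inh replicate 3. The change with resveratrol passed without HG-Res-SIRT7-Inh replicate 3 (0.28, limma adjusted p = 0.0496), and that with the inhibitor without HG-Res-SIRT7-Inh replicate 1 (-0.43, limma adjusted p = 0.0326). Without both libraries that stood apart, the changes were 0.33 and -0.26, and both passed (limma adjusted p = 0.013 and 0.0288). The authors' deposited table gave AKR1B1 a log2 fold change of 0.29 with a q-value of 0.0359 for HG-Res against HG, and -0.38 with 0.0714 for the inhibitor added. AKR1B1 has close relatives and pseudogenes in the human genome, so reads may have been shared with them.

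SORD (ENSG00000140263), sorbitol dehydrogenase, oxidises sorbitol to fructose in the next step of that pathway. It was at 30.6, 27.0 and 28.3 CPM in HG, 29.1, 28.4 and 28.6 in HG-Res, and 24.6, 25.5 and 26.2 in the inhibitor libraries. HG and HG-Res overlapped, with a change of 0.01 (interval -0.20 to 0.22, limma adjusted p = 0.994). The 3 inhibitor libraries were below all 6 others, at -0.17 against HG-Res and -0.16 against HG, and neither passed (limma adjusted p = 0.274 and 0.279). Without both libraries that stood apart, the change against HG was -0.22 and passed (limma adjusted p = 0.045). SORD has a near-identical pseudogene copy in the human genome, which makes its counts uncertain. The 2 enzymes of the polyol pathway therefore differed in where they stood with resveratrol: the HG-Res mean of AKR1B1 was 21.5% above its HG mean, and that of SORD 0.478%, a contrast that was not tested as such.

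SGK1 (ENSG00000118515) is a kinase induced by serum, glucocorticoids and cell shrinkage that acts on ion channels and transporters. It was at 27.5, 24.7 and 28.4 CPM in HG, 37.8, 37.0 and 37.4 in HG-Res, and 23.5, 25.1 and 20.6 in the inhibitor libraries. All 3 HG-Res libraries were above the other 6, and the inhibitor libraries overlapped HG. SGK1 fell by 0.68 on the log2 scale when the inhibitor was added (SE 0.11, interval -0.91 to -0.44, limma adjusted p = 0.00617), from a mean of 37.4 to 23.1 CPM. This held in all 19 alternatives, with limma adjusted p-values or authors' q-values from 6.64e-06 to 0.0407. Against HG, resveratrol alone gave a change of 0.47 ± 0.11 (interval 0.23 to 0.70) that did not pass (limma adjusted p = 0.111). It passed when the fit held these 2 groups only (0.47, limma adjusted p = 0.0244), without HG-Res-SIRT7-Inh replicate 3 (0.47, limma adjusted p = 0.013), and without both libraries that stood apart (0.41, limma adjusted p = 0.00551). The authors' deposited table gave it a q-value of 2.8e-06 with a log2 fold change of 0.49. With both compounds SGK1 stood at -0.21 against HG (interval -0.45 to 0.03, limma adjusted p = 0.225), or -0.14 without HG-Res-SIRT7-Inh replicate 3, so its order was HG-Res above HG and HG-Res-SIRT7-Inh, the latter pair not separated.

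HSPA4L (ENSG00000164070), a relative of the HSP110 chaperones also known as an osmotic stress protein, had the largest change of the 7 tested genes. It was at 6.35, 4.55 and 8.81 CPM in HG, 9.54, 8.82 and 7.46 in HG-Res, and 12.6, 18.1 and 25.6 in the inhibitor libraries. HG and HG-Res overlapped, and all 3 inhibitor libraries lay above the other 6 and apart from one another. HSPA4L rose by 1.37 ± 0.26 (SE) on the log2 scale with both compounds against HG (interval 0.79 to 1.95, limma adjusted p = 0.01), from a mean of 6.57 to 18.8 CPM, 2.86-fold. All 19 alternatives kept this call, with changes from 0.92, without both libraries that stood apart, to 1.61 and adjusted p or q-values from 4.14e-05 to 0.0481. Against HG-Res the change was 0.99 ± 0.26 (interval 0.42 to 1.57) and just missed the threshold (limma adjusted p = 0.0534). It passed without HG replicate 2 (0.99, limma adjusted p = 0.0344), HG replicate 3 (0.99, limma adjusted p = 0.0481) or HG-Res-SIRT7-Inh replicate 1 (1.24, limma adjusted p = 0.0178), and without both libraries that stood apart (0.75, limma adjusted p = 0.0177). Over all 19 alternatives the adjusted p or q ran from 0.000401 to 0.187. The authors' deposited table marked HSPA4L as up in both comparisons, with log2 fold changes of 1.09 and 1.51 and q-values of 0.000401 and 4.14e-05. Resveratrol alone gave 0.38 (interval -0.20 to 0.95, limma adjusted p = 0.703), and 0.17 without HG replicate 2 (limma adjusted p = 0.764).

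**Figure D3:**
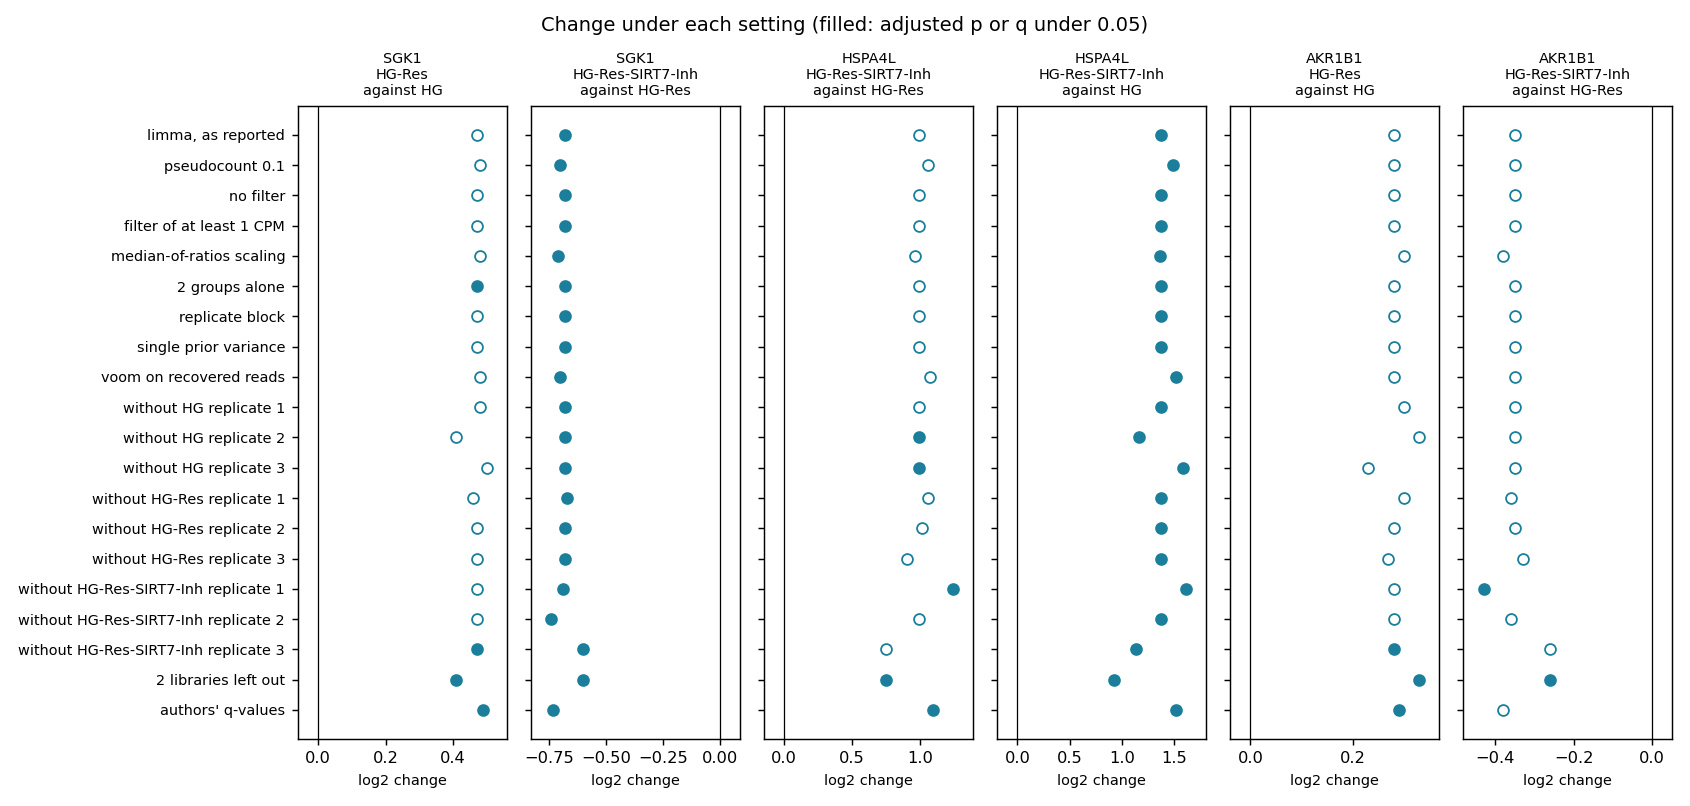
Change of SGK1, HSPA4L and AKR1B1 (horizontal axes, log2 scale) under limma as reported and each of 19 alternatives (rows); filled points have an adjusted p or q under 0.05. SGK1 with the inhibitor added and HSPA4L with both compounds against HG are filled in every row, and the other 4 changes are filled in some rows alone.

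In the authors' deposited tables, a q-value under 0.05 was given to 2 of the 9 genes for HG-Res against HG (SGK1 and AKR1B1), where 5.38% of all listed genes had one. In the same tables the authors' q-value was under 0.05 for 2 of 9 with the inhibitor added to resveratrol (SGK1 and HSPA4L, 5.65% of all), and for 1 of 9 for both compounds against HG (HSPA4L, 5.2%). The authors' own mark in the deposited tables, an unadjusted p under 0.05 with over 1.5-fold, fell on 0 of 9, 2 of 9 (SGK1 and HSPA4L) and 2 of 9 (HSPA4L and SLC5A3), where 2.11%, 7.22% and 8.22% of all listed genes carried it. Without both libraries that stood apart, limma called 2 of 7 (SGK1 and AKR1B1), 3 of 7 (SGK1, AKR1B1 and HSPA4L) and 2 of 7 (HSPA4L and SORD), where it called 21.2%, 18.8% and 31.0% of all tested genes.

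The 7 genes did not vary as 1 block. SLC5A3 followed NFAT5 library by library, and HSPA4L did so more loosely, while SGK1, AKR1B1, SLC6A6 and SORD had an r near 0 with it. The exact permutation p-values here and for the first principal component below exchanged all 9 libraries across groups. They therefore do not part group differences from shared variation among replicates. Over the 9 high-glucose libraries on the log2 scale, SLC5A3 had Pearson's r = 0.98 with NFAT5 (exact permutation p = 1.1e-05, 0.000143 adjusted over 13 relations) and Spearman's rho = 0.97 (exact permutation p = 0.000165, adjusted 0.00215). Without the 2 libraries farthest from the NFAT5 median, HG replicates 1 and 2, r was 0.96. Taken as deviations from the group means it was 0.97, so the 2 genes also moved together among replicates of 1 group. For HSPA4L r was 0.79 (exact permutation p = 0.0107, adjusted 0.0348) and rho 0.83 (exact permutation p = 0.00827, adjusted 0.0538), with r = 0.74 without those 2 libraries and 0.82 for the deviations. SGK1, AKR1B1, SLC6A6 and SORD had r of 0.14, -0.12, -0.12 and -0.15 (exact permutation p from 0.717 to 0.783, all adjusted to 0.783) and rho of 0.02, -0.10, -0.15 and -0.22 (exact permutation p from 0.581 to 0.982). Without those 2 libraries their r was -0.31, -0.37, -0.58 and -0.19, and for the deviations from group means it was 0.47, -0.68, -0.48 and 0.66. HG-Res-SIRT7-Inh replicate 3 was kept in every r with NFAT5, and the deviations were taken over all 9 libraries.

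**Figure D4:**
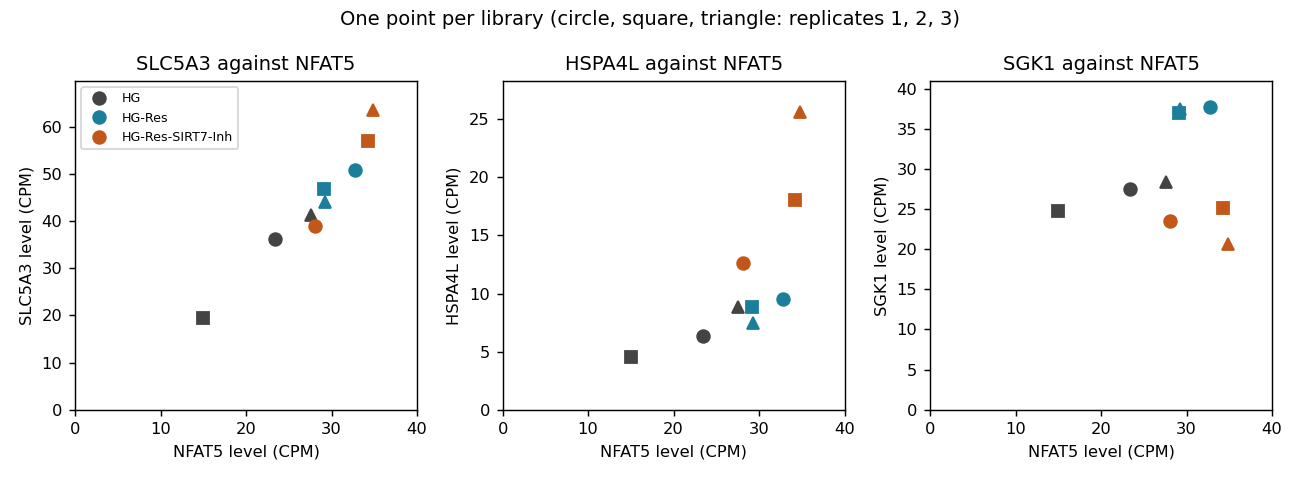
Level of SLC5A3, HSPA4L and SGK1 (vertical axes, CPM) against that of NFAT5 (horizontal axes, CPM) in the 9 high-glucose libraries, 1 point per library, coloured by group. SLC5A3 climbs with NFAT5 from HG replicate 2 (15.0 and 19.5 CPM) to HG-Res-SIRT7-Inh replicate 3 (34.8 and 63.6 CPM), whereas the 3 HG-Res points of SGK1 (37.0 to 37.8 CPM) lie above its 6 other points at much the same NFAT5 levels as the inhibitor libraries.

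Among all 12853 other tested genes, ranked by r with NFAT5 over these 9 libraries, SLC5A3 was in place 4, and HSPA4L in place 840. SGK1 was in place 5729, SLC6A6 in 7482, AKR1B1 in 7487 and SORD in 7722. The highest r belonged to ENSG00000170017 (0.987), at 115 ± 32.5 CPM in HG, 149 ± 10.6 in HG-Res and 156 ± 13.6 in the inhibitor group (SD, n = 3), and to ENSG00000057252 (0.986), at 49.6 ± 10.5, 61.1 ± 3.41 and 64.7 ± 5.49. The lowest belonged to ENSG00000198585 (-0.962), at 11.3 ± 1.01, 9.39 ± 0.381 and 9.49 ± 0.52 CPM, and ENSG00000099999 (-0.96), at 4.03 ± 0.652, 3.24 ± 0.163 and 3.17 ± 0.35. These 4 genes are ranked over the same libraries and describe the pattern alone.

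Several of the 7 genes also moved with the first principal component, the axis on which the 2 libraries stood apart. HSPA4L had r = -0.91 with it (exact permutation p = 0.000681, adjusted 0.00443; rho -0.73, exact permutation p = 0.0311, adjusted 0.0809), and r = -0.74 without those 2 libraries. AKR1B1 had r = 0.77 (exact permutation p = 0.00997, adjusted 0.0348; rho 0.77, exact permutation p = 0.0214, adjusted 0.0809) and SLC6A6 r = 0.78 (exact permutation p = 0.0186, adjusted 0.0484; rho 0.73, exact permutation p = 0.0311, adjusted 0.0809). Without the 2 libraries these were 0.84 and 0.80. NFAT5 and SLC5A3 had r = -0.66 and -0.73 (exact permutation p = 0.0877 and 0.049, adjusted 0.157 and 0.106), which dropped to -0.29 and -0.32 without them, so those relations rest on the 2 libraries. Both had rho = -0.53 (exact permutation p = 0.148, adjusted 0.275). SGK1 and SORD had r = 0.58 and 0.38 (exact permutation p = 0.0969 and 0.319, adjusted 0.157 and 0.461; rho 0.47 and 0.45, exact permutation p = 0.213 and 0.23, adjusted 0.332 each), and 0.77 and 0.55 without the 2 libraries. Taken as deviations from the group means, with all 9 libraries, r with this axis was -0.76 for NFAT5, -0.86 for SLC5A3, -0.95 for HSPA4L, 0.95 for AKR1B1, 0.88 for SLC6A6 and 0.19 for SGK1, and for SORD it turned to -0.68. What set this axis, and its part in the results above, was not tested.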

How the data were processed

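The submitters' processing notes name Trimmomatic and the build rn6. Which aligner, counter, annotation and statistical test were used is not given in the sources used here. The authors' 4 deposited tables hold, for each gene, library values with the authors' p-value, q-value and log2 fold change. The value columns are headed TPM, but behave as CPM made by the authors: in each library 99.95% to 100.0% of the values above 0 lay within the rounding of 2 decimals of a whole multiple of 1 step, the same for every gene. Recovered reads served depth, low genes and voom, and no count model was run on them. Replicate pairs differed by more than sampling noise (chi-square per degree of freedom of at least 5.26).

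Values were used as deposited, as log2(CPM + 1), and fitted with limma 3.58.1 in R 4.3.3: group means, 1 fit over the 9 high-glucose libraries, moderated variances that follow mean level. This understates changes of low genes. The fit was tested on simulated data. All 9 genes are described; the genes most like NFAT5 are the 2 highest and 2 lowest by Pearson's r. The genes, lists and tests were chosen with earlier results of these data known. The other pathway genes and cell type markers drawn up by symbol could not be matched to identifiers, and rat promoter sequences were not used here. Alternatives covered pseudocount, filter, scaling, trend, voom, the groups in the fit, a replicate block, the authors' q-values and left-out libraries.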

Additional observations from a re-analysis of the deposited data

How the results depend on the processing

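Each of the 21 changes (7 genes, 3 comparisons) was recomputed under 19 alternatives, 399 values in all: 375 kept their direction and side of the threshold, 17 newly passed, 0 lost a call and 7 changed sign. Changing the filter, the groups in the fit, the replicate block or the trend leaves a gene's change as it is. So does leaving out a library of the group outside the comparison. Directions kept under these settings were fixed in advance, and only the p-value could move. For HG-Res against HG (0 genes called) the count was 1 with 2 groups alone (4.64% of all genes tested). By the authors' q-values it was 2 (5.38% of all 20263 listed genes, a larger set than the 12854 tested). It was 2 without both libraries that stood apart (21.2% of all genes tested), and 0 to 2 without any 1 library (0.148% to 6.23%). In the latter the 2 came without HG-Res-SIRT7-Inh replicate 3, where 6.23% of all genes tested were called against 0.708% with every library. For the inhibitor added to resveratrol (1 called) the count was 2 by the authors' q-values (5.65% of all listed genes). It was 3 without both libraries (18.8% of all genes tested), and 1 to 3 without any 1 (2.15% to 13.8%). The latter held 2 without HG replicate 2 (7.02%) or HG replicate 3 (4.68%), and 3 without replicate 1 of the inhibitor group (13.8%). For both compounds against HG (1 called) it was 2 without both libraries (31.0%) and 1 to 2 without any 1 (4.27% to 21.1%): 2 without HG replicate 3 (6.67%) or HG-Res-SIRT7-Inh replicate 1 (16.9%). The changes of sign were in 3 results within 0.07 of 0 on the log2 scale, none of them called. SORD in HG-Res against HG ran from -0.03 to 0.06 without any 1 library and was -0.03 without both. With both compounds against HG, AKR1B1 ran from -0.15 to 0.03 and was 0.07 without both, and SLC6A6 ran from -0.09 to 0.04 and was 0.05 without both. The cause was not tested. With 2 groups alone, where the spread of the other group does not enter, the count stayed at 1 in each comparison that holds the inhibitor. The share of all genes tested was then 3.22% for the inhibitor added, beside 6.07% in the fit over all 3 groups. For both compounds against HG it was 3.27%, beside 10.8%. With the replicate number as a block, the counts were 0, 1 and 1, as without it. Same-numbered samples of different groups deviated from their group means with correlations from -0.55 to 0.64. Samples with different numbers were not compared, so whether the numbers mark a pairing was not settled. Stricter limits on the HG against Ctrl table could only narrow a list that holds 0 of the 9 genes, so they show nothing of its stability. Depth limits AQP1, with 5 reads in all.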
